A study of Mus musculus with 6 samples.

Results

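The type I interferon genes described here are 6 interferon alpha genes (Ifna1, Ifna2, Ifna4, Ifna5, Ifna6 and Ifna13) and the interferon beta gene Ifnb1, 7 of the 854 genes in the authors' deposited table. They were chosen by symbol from a table that was itself selected on the contrast described below, so their difference between the genotypes is given as a description, without a test. The cells were OT-I cells, CD8 T cells of a transgenic mouse whose T-cell receptor recognises an ovalbumin peptide, enriched as naive cells from spleen and lymph nodes. The 2 groups were wild-type (WT) and Themis conditional knockout (cKO), where Themis is a protein of T-lineage cells that takes part in T-cell receptor signalling. Both groups carried the OT-I receptor and both were kept for 3 days with IL-2 at 1 µg/ml, and 3 libraries were sequenced per genotype. The Cre driver of the knockout and the age of the mice are not given in the sources used here, nor is whether replicates were separate animals or cultures, so the spread between libraries may be technical.

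Type I interferons are secreted antiviral cytokines that all bind 1 receptor, made of the IFNAR1 and IFNAR2 chains. Cells make them after sensing foreign or misplaced nucleic acid: RIG-I-like and Toll-like receptors activate the transcription factors IRF3, IRF7 and NF-κB, which act on the interferon promoters. Ifnb1 and Ifna4 are known as early genes that IRF3 can induce, and the other alpha genes as later genes that need IRF7, which interferon itself induces. The receptor signals through JAK1, TYK2, STAT2 and IRF9 to a large set of interferon-stimulated genes. Plasmacytoid dendritic cells are the best known source of interferon alpha, and T cells are better known for interferon gamma.

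The proximal promoters of the genes are shown first, because the letters that IRF factors are known to recognise sit there and because the members' levels can be read beside them. The sequences are RefSeq's, on GRCm38.p6, and a promoter window was found for each of the 7 genes. Each sequence runs 5′ to 3′ on the gene's own strand and ends with a TATA-like run, TATAAA in Ifnb1 and TATTTAA in the alpha genes. Capitals mark matches to AANNGAAA, the core letters of an IRF site. Ifna6 is shown only up to the start of its RefSeq gene model, which lies before its TATA-like run.
Ifnb1: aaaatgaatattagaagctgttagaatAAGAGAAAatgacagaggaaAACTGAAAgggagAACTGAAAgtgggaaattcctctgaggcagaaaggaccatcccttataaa
Ifna4: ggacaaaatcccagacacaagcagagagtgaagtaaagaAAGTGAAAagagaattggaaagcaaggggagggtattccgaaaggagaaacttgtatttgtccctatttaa
Ifna2: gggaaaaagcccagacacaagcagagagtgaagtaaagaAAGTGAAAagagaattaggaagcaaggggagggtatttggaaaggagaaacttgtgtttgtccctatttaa
Ifna1: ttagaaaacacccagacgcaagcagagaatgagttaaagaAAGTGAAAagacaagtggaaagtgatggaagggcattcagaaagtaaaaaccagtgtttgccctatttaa
Ifna5: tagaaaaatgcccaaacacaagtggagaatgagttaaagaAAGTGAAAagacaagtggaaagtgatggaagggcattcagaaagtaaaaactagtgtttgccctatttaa
Ifna6: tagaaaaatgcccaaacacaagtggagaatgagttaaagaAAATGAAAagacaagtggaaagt
Ifna13: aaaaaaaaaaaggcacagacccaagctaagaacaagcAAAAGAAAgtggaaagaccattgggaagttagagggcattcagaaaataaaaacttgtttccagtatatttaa

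In order, these stretches lie at chr4:88522871-88522980 (minus strand), chr4:88841661-88841770 (plus), chr4:88683871-88683980 (minus), chr4:88849884-88849993 (plus), chr4:88835322-88835431 (plus), chr4:88827213-88827275 (plus) and chr4:88644485-88644594 (minus). All are upstream of the RefSeq gene models. The 6 alpha genes each held 1 match at nearly the same distance from the TATA-like run, starting 66 bases before it in Ifna13, 64 in Ifna4 and Ifna2, and 63 in Ifna1, Ifna5 and Ifna6. The matched letters were AAGTGAAA in Ifna4, Ifna2, Ifna1 and Ifna5, the alpha members with the most reads, AAATGAAA in Ifna6 and AAAAGAAA in Ifna13, the 2 with the fewest. Ifna5 and Ifna6 differed at 1 of the 110 bases, G43A, counted from 1 at the first base and with the letter of Ifna5 first, and that base lies in this match (the last 47 bases compared lie inside the Ifna6 gene model and are not printed). Ifna4 and Ifna2 differed at 8 of 110 bases, and Ifna1 and Ifna5 at 10, compared base by base from the TATA-like run without gaps. The letters AAGTGAAA started 66 to 63 bases before the TATA-like run in 8 alpha genes of the cluster. Of these, 4 are members and the others have no count here. Ifna12, which has no count either, held the same letters starting 62 bases before its TATA-like run. Whether the matched letters bear on the members' levels was not tested.

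Ifnb1 had 3 IRF-type matches within the printed stretch, followed by gggaaattcc, which holds a match to GGGANNTTC, a form of the NF-κB site. It is the only window of the 14 available for mouse Ifna and Ifnb1 genes with that match, on either strand, and none of the 14 held the AP-1 letters TGANTCA. Other forms of AP-1 site, and sites of related factors, were not searched. Over all 32851 RefSeq promoter windows of 300 bases (250 before the gene start and 50 after), AANNGAAA occurred on either strand in 23.9% and in 3 or more places in 1.12%, GGGANNTTC in 3.94% and TGANTCA in 7.81%. The NF-κB-type match of Ifnb1 overlaps none of its IRF-type matches. The IRF letters are rich in A, and the members' windows held more A and T (52.0% to 68.7%) than the median window (47.3%). An IRF-type match on the gene's strand starting 66 to 63 bases before a TATTTAA run was found in 16 windows (0.0487% of all), of which 12 belonged to alpha genes. That range of distances was taken from the members themselves, and the match of Ifna12, starting 62 bases before its run, falls just outside it. Beyond the printed stretch, Ifna4 had 2 more matches and Ifna2 and Ifna5 had 1 more each, although the windows reach different distances upstream. The plot of motif matches shows the arrangement.

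**Figure D1:**
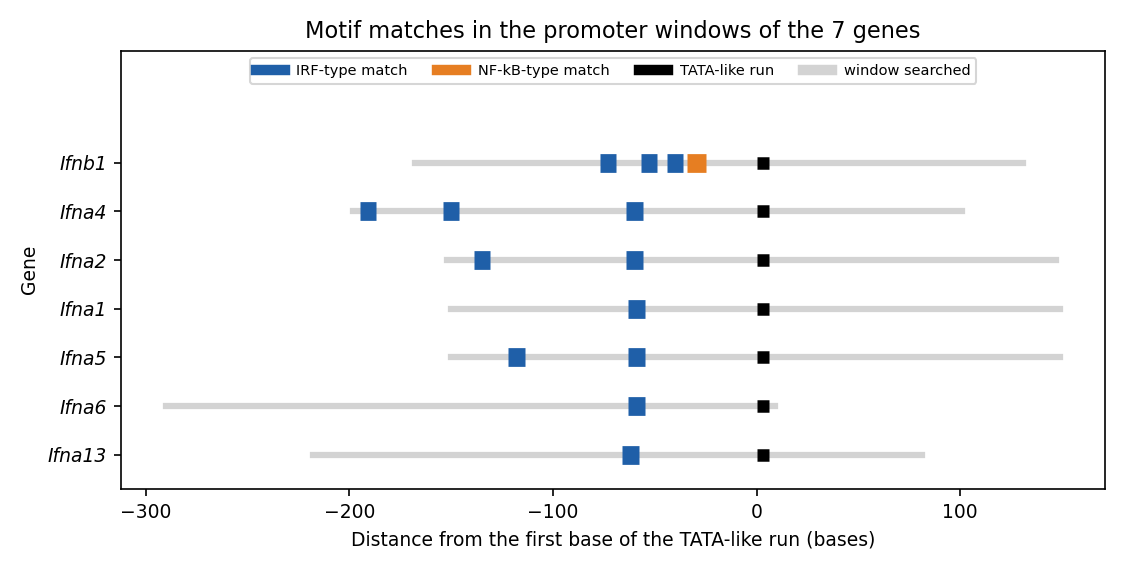
Matches to the IRF-type and NF-κB-type letters in the RefSeq promoter windows of the 7 genes (1 row per gene), by distance in bases from the first base of the TATA-like run; grey bars are the 300 bases searched. The 6 alpha genes share a match that starts 66 to 63 bases before the run, and Ifnb1 has 3 matches beside its NF-κB-type match.

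The library counts summed to 946766 to 1054442 over the table in WT and to 424605 to 437437 in cKO, which are not sequencing depths, since the table is a selection of genes. The log2 ratios of mean counts, cKO over WT, left a gap from -0.942 to 1.06 with no gene in it, so a difference between the genotypes is built into it. Themis, the targeted gene, was lower in each cKO library, with 970 to 1247 counts against 5171 to 5882 in WT, a log2 fold change of -2.25 ± 0.11 (standard error, edgeR quasi-likelihood test with Benjamini-Hochberg adjustment, adjusted p = 5.04e-08). TMM scaling and DESeq2 size factors, which take the table as balanced around its own middle, moved the median log2 fold change of all genes by 1.31 and 1.30, and Themis to -0.94 and -0.95. They are called table-centred scalings here. None of the 9 CD8 T-cell markers listed (such as Cd3e and Cd8a) was in the table, so the labelled cell type could not be checked on them.

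The early genes were read in all WT libraries and nearly absent from cKO. Ifnb1, the single interferon beta gene of the mouse, had 42, 36 and 51 counts in WT replicates 1 to 3 and none in any cKO library. With the cKO group set at a floor of 3 counts in total, and both genotypes taken at equal depth, it was at least 43.0-fold lower there (14.3-fold with 3 counts per library). Ifna4, the early alpha gene, had 145.52, 149.73 and 169.1 counts in WT and 0, 1 and 1 in cKO. Its ratio of summed counts was 232, with an exact 95% interval of 63.9 to 1921 (Clopper-Pearson, counting error only). Both genes were thus separated in every library.

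Among the later alpha genes, Ifna2 had 91.01, 125.74 and 118.83 counts in the WT libraries and Ifna1 had 69.75, 93.1 and 109.07. Ifna5 had 33.41, 30.36 and 41. All 3 were at 0 in each cKO library, which on the same floor and at equal depth makes them at least 112-fold, 90.6-fold and 34.9-fold lower. With 3 counts per library these bounds were 37.3-fold, 30.2-fold and 11.6-fold. The remaining members had few reads even in WT. Ifna6 had 5.62, 6.47 and 19.08 counts in WT, most of them in replicate 3, and it was at 0 in cKO, at least 10.4-fold lower on that floor and 3.46-fold with 3 counts per library. Ifna13 had 3.42, 9.65 and 6.18 counts in WT and 0, 0 and 1 in cKO, a ratio of 19.25 with an interval of 3.02 to 789.

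No WT library overlapped a cKO library in any of the 7 genes, but this held for 76% of all 854 genes of this table, and the choice of the table used the same contrast. In the table, 22 genes had 0 counts in all 3 cKO libraries, 5 of them type I interferon genes. The 4 of these 22 genes with 100 or more WT counts were Ifna2, Ifna1, Ifnb1 and Ifna5, and the next was the keratin gene Krt16 with 50. In the authors' deposited table the 5 lowest log2 values of all genes belonged to Ifna2 (-8.89), Ifna1 (-8.58), Ifnb1 (-7.50), Ifna5 (-7.19) and Ifna4 (-6.90), with Ifna6 at -5.40 and Ifna13 at -4.01. For genes at 0 such a log2 value depends on how the 0 was handled, and no source used here says how. In bulk RNA, fewer producing cells and less RNA per cell cannot be told apart.

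**Figure D2:**
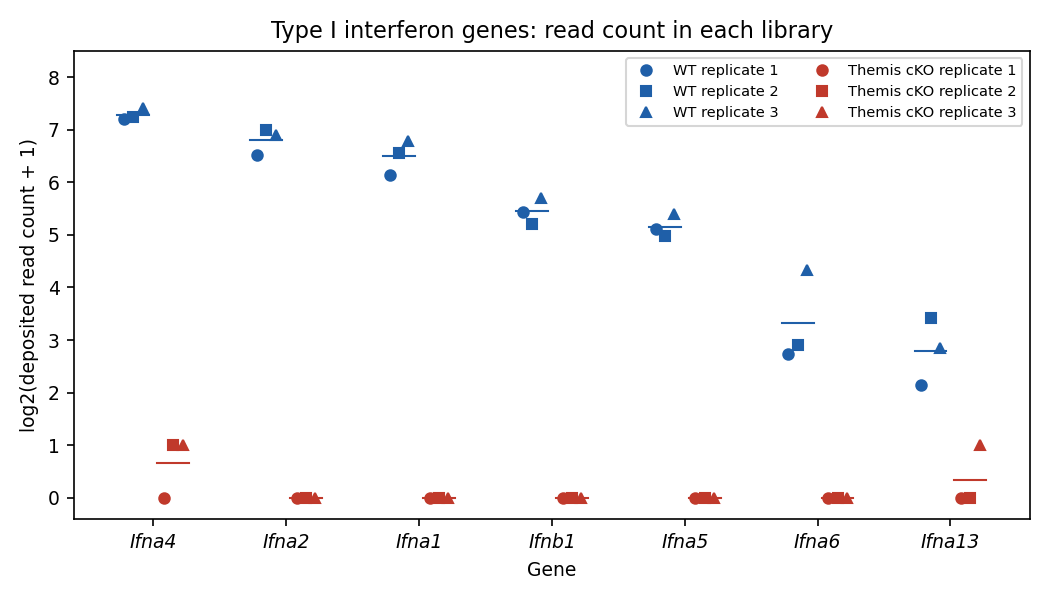
Deposited read count of each of the 7 genes in each library, as log2(count + 1); blue symbols are the 3 WT libraries, red symbols the 3 Themis cKO libraries, and short lines the means on this scale. The WT values lie between 3.42 and 169.1 counts and the cKO values at 0 or 1.

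Summed over the 7 genes, the WT libraries held 390.73, 451.05 and 514.26 counts and the cKO libraries 0, 1 and 2. The 3 reads left in cKO belonged to Ifna4 (2) and Ifna13 (1). On counts scaled within each genotype, with both genotypes taken at equal depth, the mean sum was 450.4 ± 40.1 in WT (SD, n = 3), and the cKO libraries held 0, 0.984 and 2.02, a ratio of means of 449.9. The exact interval of the ratio of deposited sums was 154 to 2195. A scaling that centres the table on itself (TMM) gave a ratio of 184, and leaving out cKO replicate 3, which held 2 of the 3 reads, gave 911, while leaving out cKO replicate 1, which held none, gave 299. The alpha genes without Ifnb1 gave 407.

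The WT libraries varied more in the sum than counting error gives. The coefficient of variation of the sum over the 3 scaled libraries was 8.91%, where counting error alone gives 4.70%. Ifna4 varied by 4.87% and Ifnb1 by 16.1%, where counting error gives 8.04% and 15.2% at their levels. Ifna2 and Ifna1 varied by 12.4% and 17.1% against 9.46% and 10.5%, and Ifna5 and Ifna13 by 13.7% and 46.5% against 16.9% and 39.5%. Ifna6 varied by 68.7% against 31.0%, the largest excess of the 7. WT replicate 3 had the highest sum, 1.32 times that of WT replicate 1 in deposited counts and 1.19 times in scaled counts.

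The members kept much the same order in the 3 WT libraries. Ifna4 took 34.4% ± 2.43 of the summed counts, Ifna2 24.8% ± 2.70, Ifna1 19.9% ± 1.80, Ifnb1 9.55% ± 1.42 and Ifna5 7.75% ± 0.930 (SD, n = 3). Ifna6 and Ifna13 took 2.19% ± 1.31 and 1.41% ± 0.656 and changed places in WT replicate 2. Read counts grow with transcript length, so levels were compared per kilobase of coding sequence, whose length (549 to 573 bases) is nearly the same in all 7 genes. On that scale the levels were 275.9 ± 22.4 counts per coding kb for Ifna4, 195 ± 32.1 for Ifna2, 159 ± 34.7 for Ifna1, 78.3 ± 13.8 for Ifnb1, 61.3 ± 9.61 for Ifna5, 18.2 ± 13.2 for Ifna6 and 11.3 ± 5.48 for Ifna13. Across libraries the ranges of Ifna2 and Ifna1 overlapped on that scale, as did those of Ifnb1 and Ifna5 and those of Ifna6 and Ifna13, whereas those of the other neighbours in the order did not. Within each WT library, Ifna2 nevertheless lay above Ifna1 and Ifnb1 above Ifna5. Reads from untranslated regions would be counted too, and their annotated lengths differ between the genes.

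**Figure D3:**
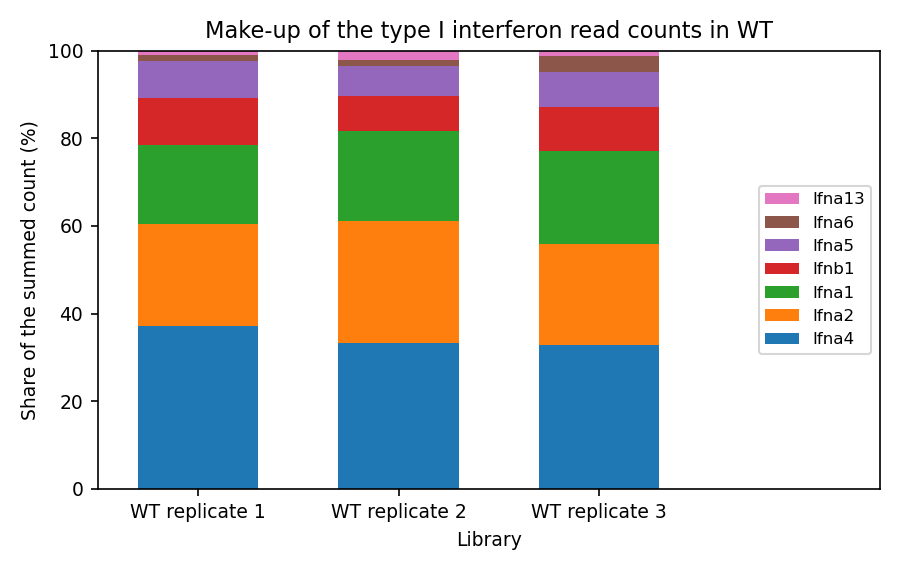
Share of each gene (%) in the summed type I interferon read count of each of the 3 WT libraries. Ifna4 is the largest part in each, with 32.9% to 37.2%, and Ifna6 and Ifna13 are the smallest.

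The alpha genes are close copies of each other, which limits how surely a read can be given to 1 of them. Over the 15 pairs of the 6 alpha members, the coding sequences were 84.5% to 94.4% identical (median 89.0%), whereas Ifnb1 was 51.1% to 53.4% identical to them. All Ifnb1 counts were whole numbers, while every WT value of Ifna4, Ifna2, Ifna1, Ifna6 and Ifna13, and 2 of 3 of Ifna5 was not whole. RSEM, which the submitters' processing notes name, divides reads between similar transcripts. Of the 100-base pieces of the coding sequence, those found in no other annotated mouse gene made up 100% in Ifna4, Ifna13 and Ifnb1, 98.7% in Ifna2, 93.6% in Ifna6, 85.1% in Ifna1 and 83.4% in Ifna5. With 50-base pieces the share fell to 32.6% in Ifna1, 44.1% in Ifna6 and 47.8% in Ifna5 but was 93.6% in Ifna4 and 100% in Ifnb1. No source used here gives the read length. Counts of the single alpha genes are therefore uncertain where their share of unique pieces is low, as in Ifna1, Ifna5 and Ifna6.

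The 7 genes lie in 1 cluster on chromosome 4 that holds 15 alpha and beta genes in RefSeq over 329 kb, and each member has 1 exon and overlaps no other RefSeq gene. Ifnb1 (chr4:88522025-88522794) is at one end. Ifna13 (chr4:88643641-88644459) and Ifna2 (chr4:88683207-88683779) follow on the same strand, 122 and 161 kb away. Ifna6 (chr4:88827276-88828032), Ifna5 (chr4:88835525-88836094), Ifna4 (chr4:88841816-88842459) and Ifna1 (chr4:88850087-88850656) stand side by side at the other end, on the opposite strand, 305 to 328 kb from Ifnb1. Genes with many and with few reads are thus neighbours, with 10.4 ± 7.54 WT counts for Ifna6 and 154.8 ± 12.6 for Ifna4, with only Ifna5 between them. The other 8 alpha genes of the cluster were not in the table and have no count here.

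**Figure D4:**
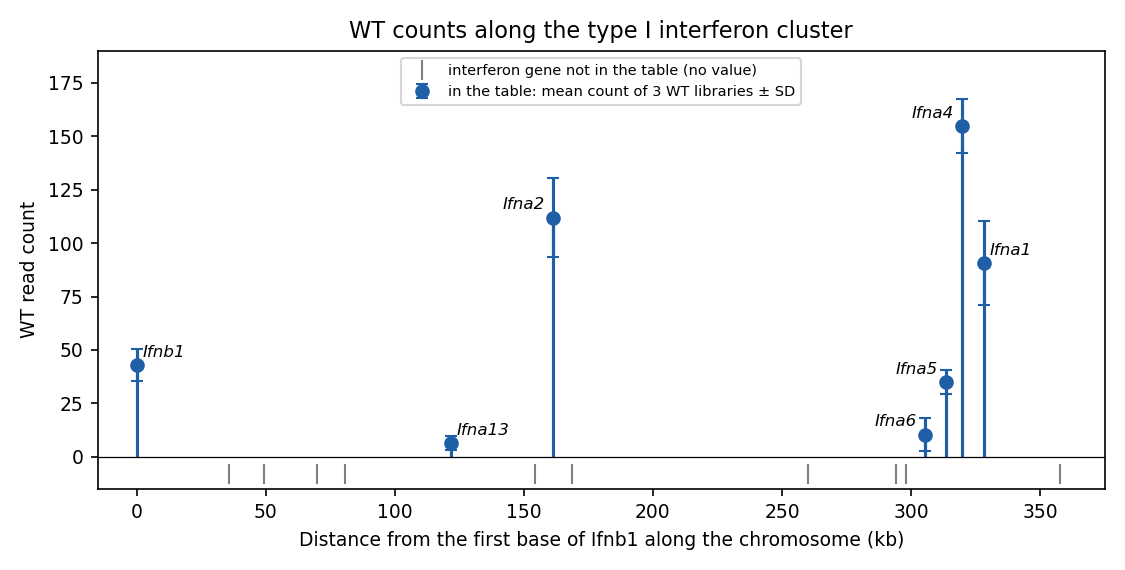
Mean deposited WT read count of each member (± SD of 3 libraries) by distance in kb along the chromosome from the first base of Ifnb1; grey ticks are interferon genes without a value, Ifnz and Ifne included. Ifna6, Ifna5, Ifna4 and Ifna1 stand together at the right, with means of 10.4 to 154.8 counts.

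The pathway around the ligands was followed on 6 lists of genes, chosen with earlier results of these data known. Of 796 genes tested with edgeR, 100% were called at an adjusted p of 0.05 and 75.9% were called lower (604 lower and 192 higher, against 214 and 224 with TMM), so a call repeats how the table was made. All 44 listed genes in the table were tested and called lower. Their median was -2.42 on the log2 scale beside -1.35 over all genes tested. The latter includes the 192 genes called higher, so these medians do not compare like with like. Under the table-centred scalings 4 of the 44 (Bst2, Irf5, Nfkb2 and Nfkbia) turned sign and 34 remained called lower. Of the 7 other interferon ligands listed, only Ifng was in the table. Ifng, the type II interferon typical of T cells, had 2031, 2092 and 2186 counts in WT and 254, 310 and 349 in cKO. It was thus lower but still well read in each cKO library (6.91-fold on scaled counts, log2 fold change of -2.79 ± 0.13, edgeR adjusted p = 3.87e-08). The folds of the listed genes take both genotypes at equal depth. The authors' deposited log2 values were less negative for each listed gene in the table, as for Ifng with -2.21.

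The table held 5 of the 12 listed factors that induce interferon genes, each called lower, but Irf5 and Nfkb2 turned sign under the table-centred scalings and the calls of Jun and Relb ended there. Irf7, which drives the later alpha genes, had 6762, 8167 and 8481 counts in WT and 1407, 1430 and 1091 in cKO. It was 5.95-fold lower at equal depth (log2 fold change -2.57 ± 0.11, edgeR adjusted p = 2.58e-08), where the authors' deposited log2 value was -2.10. Irf7 was the 1 factor of the 5 whose call held under those scalings. Jun, a part of AP-1, had scaled means of 2674 and 976, and the NF-κB subunits Nfkb2 and Relb had 2317 against 962 and 1291 against 504. Irf5, a factor better known from myeloid and B cells, had 63.03, 71.33 and 98.63 counts in WT and 15, 40.05 and 44.21 in cKO. Irf3, Irf1, Irf8, Rela, Nfkb1, Rel and Atf2 were not in the table.

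Of the 19 sensors and adaptors, 6 were in the table and all 6 were called lower, also under both table-centred scalings. Dhx58 (LGP2) and Ifih1 (MDA5), sensors of cytosolic RNA of the RIG-I family, were 9.60-fold and 8.47-fold lower, with scaled means of 3986 ± 277 against 415 ± 61.3 and 2440 ± 107 against 288 ± 9.77. Ddx58 (RIG-I) itself was 2.86-fold lower. Tlr7, an endosomal receptor of single-stranded RNA, had 1158, 1033 and 1542 counts in WT and 268, 253 and 267 in cKO. Tlr3, the receptor of double-stranded RNA, was low in all libraries, at 34 to 58 counts in WT and 5 to 10 in cKO. Zbp1, a sensor of Z-form nucleic acid, was the most read of the 6 and was 3.13-fold lower. Most of these sensors are themselves known as interferon-stimulated genes, so the list is not separate from the response.

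Downstream of the receptor, 1 of 7 listed receptor and signalling genes was in the table: Stat2, with 4447 to 5306 counts in WT and 1315 to 1547 in cKO (log2 fold change -1.76 ± 0.09, edgeR adjusted p = 5.43e-08). Ifnar1, Ifnar2, Jak1, Tyk2 and Irf9 were not in it. Of 33 response genes the table held 27, each called lower (median log2 fold change -3.07), although Bst2 turned sign and the calls of Eif2ak2, Ifi27l2a and Trim25 ended under the table-centred scalings. The 6 with the highest mean counts were Trim30a, Oasl2, Oas3, Parp14, Samd9l and Ifit3, with log2 fold changes of -1.65 to -4.02, and none had fewer than 493.67 counts in a cKO library. Parp14, for example, an ADP-ribosyltransferase, had scaled means of 8732 ± 284 in WT and 2780 ± 206 in cKO, and Oas3, an enzyme that senses double-stranded RNA, 9104 ± 269 and 2347 ± 220. Summed over the 27 genes, response transcripts held 118194 to 138182 counts per WT library and 22726 to 25534 per cKO library. The most abundant genes carry these sums. Ifi44 was nearly gone in cKO, with 4.81 to 11.96 counts against 295.22 to 361.72 in WT. Oasl1 was 28.6-fold lower at equal depth but still read in cKO, with 52 to 99 counts against 1741 to 2534. Of 8 inhibitors of the response, 4 were in the table and called lower. Usp18, which blocks signalling at the receptor, was 12.4-fold lower and Atf3, known to repress Ifnb1, was 59.0-fold lower. The authors' deposited log2 values for these 2 genes were -2.94 and -5.01, beside -3.63 and -5.87 at equal depth. Tnfaip3 (A20) and Nfkbia, inhibitors of NF-κB, were 2.52-fold and 2.10-fold lower, a difference that Nfkbia reversed and Tnfaip3 lost under the table-centred scalings.

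**Figure D5:**
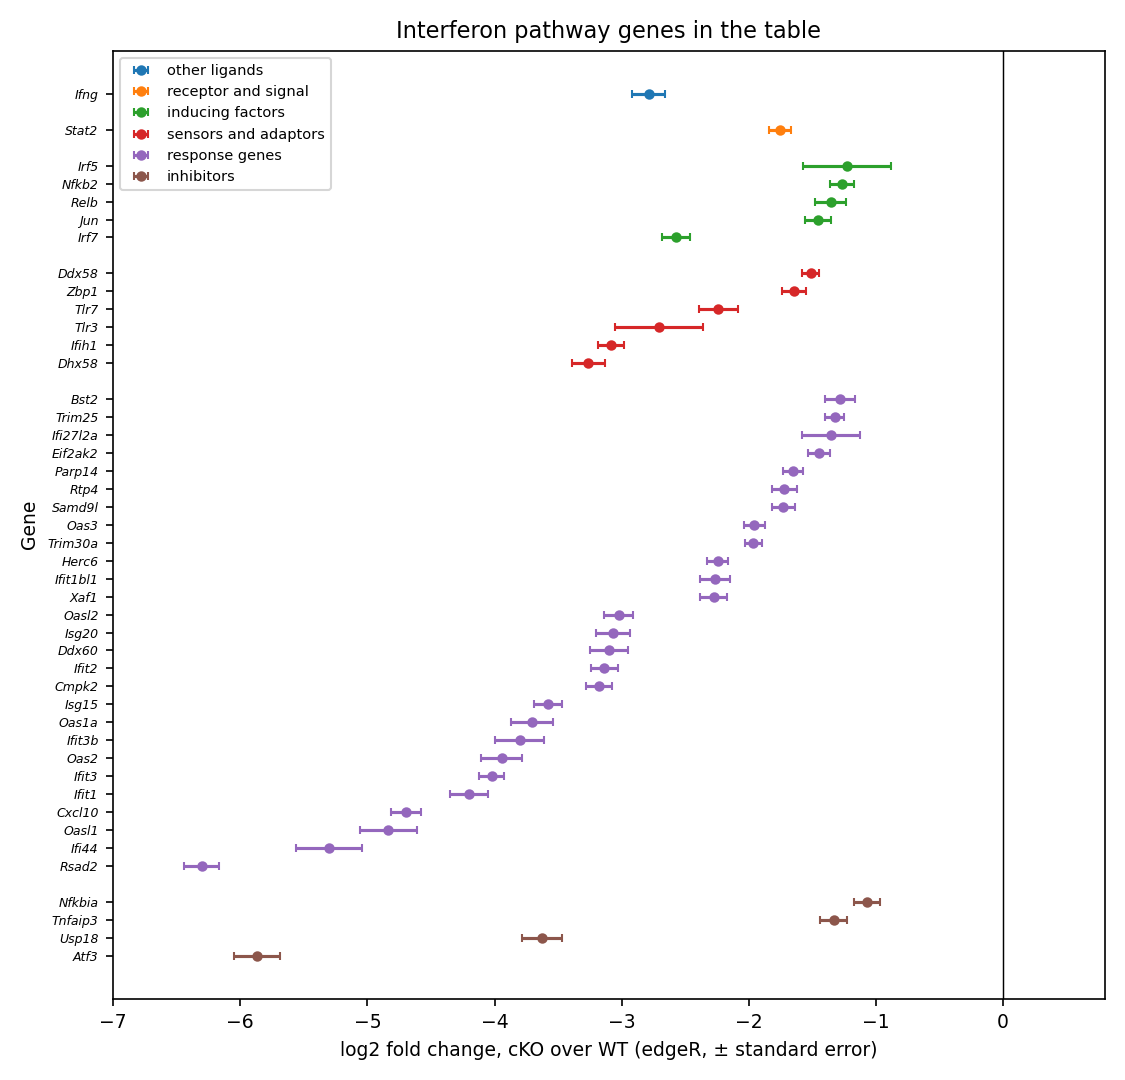
Log2 fold change of cKO over WT (edgeR, both genotypes taken at equal depth) for the 44 pathway genes in the table, by list, with bars of ± 1 standard error. All points lie below 0, from -1.07 to -6.31; Bst2, Irf5, Nfkb2 and Nfkbia turned sign under table-centred scalings.

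The genes whose profile over the 6 libraries was most like that of the summed members were found by the distance between their shares of scaled counts per library, where 0 is an equal profile and 1 no overlap. The 5 nearest were Fam183b (0.017), Atf3 (0.026), Rsad2 (0.029), Dusp8 (0.034) and Cxcl10 (0.035). Rsad2 and Cxcl10 are interferon-stimulated genes, the antiviral enzyme viperin and a chemokine. Rsad2 had 4924, 6248 and 6405 counts in WT and 65, 70 and 86 in cKO, and Cxcl10 had 5054, 6131 and 6839 against 207, 239 and 246. Dusp8, a phosphatase of MAP kinases, had 57.99, 57 and 67 counts in WT and 0, 0 and 1 in cKO, and Fam183b 32, 36 and 41 against 0, 0 and 2. All of them combine near-even WT libraries with few cKO reads, which any strongly lower gene of this table would share.

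Markers of other cells that could be present in the cultures moved in both directions. Of 12 markers of plasmacytoid dendritic cells, 3 were in the table, Tlr7, Bst2 and Cox6a2, with 5406 to 6430 summed counts in WT and 1768 to 2406 in cKO. Tlr7 and Bst2 are also on the pathway lists, and Cox6a2 alone had 25, 36 and 53 counts in WT and 16, 10 and 6 in cKO. Under the table-centred scalings Bst2 turned sign and the call of Cox6a2 ended (adjusted p = 0.312 with TMM in edgeR). Siglech, Ly6d, Spib, Tcf4, Pacsin1 and the others of that list were not in the table and have no value here. Of 17 myeloid and conventional dendritic markers 4 were in the table. Their sums, mostly counts of Ly6c2, were 6870 to 11371 in WT and 4588 to 4978 in cKO. Mpeg1, a pore-forming protein of phagocytes, had 373, 345 and 439 counts in WT against 44, 47 and 62 in cKO. Ly6c2, also expressed by activated CD8 T cells, had 6341.39 to 10593 in WT against 3565.93 to 4263.38 in cKO. The sign of Ly6c2 changed with table-centred scaling. Itgax and Fcer1g were 2.42-fold and 2.90-fold higher in cKO.

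Of the B-cell markers, 4 that the table held are described here. Ms4a1, Cd79b and H2-Eb1 were higher in cKO (scaled means of 54.3 to 108 against 17.2 to 41.9) and H2-Ab1 lower (76.7 ± 46.2 against 253.8 ± 21.6), a call that ended with TMM (edgeR adjusted p = 0.365). The genotypes overlapped in Ms4a1 and H2-Eb1, and cKO replicate 1 was the lowest cKO library in each of the 4 genes. Of 8 stromal markers only Madcam1 was in the table, with 8 to 13 counts in WT and 1 or 2 in cKO. No listed marker in the table was at 0 in all libraries. The part of these cells in the interferon counts was not tested.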

How the data were processed

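RNA of 6 samples was sequenced on a DNBSEQ-G400, per the labels' protocols. The authors deposited 1 table with an estimated count of reads per gene and library (66.1% of values are whole numbers), a log2 fold change and a p-value and q-value per gene. The submitters' processing notes name, without roles, RSEM 1.2.12, the aligners Bowtie2 2.2.5 and HISAT2 2.0.4, the test DESeq2 1.4.5 and the build GRCm38.p6. Members are given in deposited counts. For the other genes, counts were rounded, scaled by median-of-ratios factors within each genotype (0.944 to 1.04), with both genotypes at equal depth, and tested with edgeR 4.0.16 (quasi-likelihood F-test, R 4.3.3, filter with a smallest count of 10, 796 genes tested and 58 left out, Benjamini-Hochberg at 0.05); true depths are unknown. Of the members 5 passed that filter and Ifna6 and Ifna13 did not. Those 5 are among the 796 genes of the test, its calls and its adjustment, but no member's own test result is given. The fit was tested on simulated data with equal depth and with as many genes higher as lower, so that test cannot speak to the true depths.

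The members and gene lists were chosen with earlier results of these data known. Named are all members, Themis, up to 6 genes per list with the highest mean, markers in the table and the 5 most alike genes with 100 or more counts. Other genes named were chosen after their values were seen. Coding sequences were aligned with Biopython 1.88 from GENCODE M21 (GRCm38), in place of a planned comparison of proteins. Some listed genes are not reported here. Floors and intervals cover counting error only.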

Additional observations from a re-analysis of the deposited data

How the results depend on the processing

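Alternatives covered the scaling, the test (DESeq2 1.42.0), the low-count filter, the number of genes adjusted over, a block for the replicate number, and leaving out 1 library at a time. The ratio of the summed members was 184 with TMM and 299 to 911 with 1 library left out. For Ifnb1 alone no ratio could be formed, since cKO had no reads. The floors of the genes at 0 fall to 37.3-fold (Ifna2), 30.2-fold (Ifna1), 14.3-fold (Ifnb1), 11.6-fold (Ifna5) and 3.46-fold (Ifna6) with 3 counts per library. TMM and DESeq2 size factors, which centre the table on itself, shifted the median log2 fold change by 1.31 and 1.30 and turned the split of 604 lower and 192 higher calls into 214 and 224 or 217 and 221. Under both, 34 of the 44 pathway genes were called lower, and the inducing factors called lower numbered 1 and the inhibitors 2. Under TMM and size factors Nfkb2 stood at 0.042 and 0.029, Irf5 at 0.082 and 0.073 and Nfkbia at 0.24 and 0.23. The signs of these genes differed between the scalings run here, equal depth included, and true depths are unknown. The authors' deposited log2 values for these genes were negative, at -1.02 for Nfkb2, -1.02 for Irf5 and -0.86 for Nfkbia. For Bst2, which also turned sign, the deposited value was -0.97. When p-values were adjusted over 16996 genes, the number tested implied by the authors' own p and q, the call of Irf5 ended (edgeR adjusted p = 0.132). Replicate numbers showed no sign of pairing the samples (correlations of deviations of -0.07, -0.05 and -0.15), but 3 libraries per genotype are too few to exclude it. With a replicate block 44 pathway genes were called lower and Themis stood at -2.25. No pathway gene was called higher at an adjusted p of 0.05 under any alternative run. In the main edgeR test all 44 were lower, so the 0 higher at an unadjusted p of 0.05 holds for that test alone. Nfkbia, higher under TMM, had an edgeR adjusted p of 0.0709 there. Themis ranged from -2.32 to -2.15 with libraries left out. Leaving out any 1 library ended no call of the pathway genes, Fam183b, Dusp8 or Themis. Depth limits Ifna6 and Ifna13, which had 31.17 and 19.25 reads over WT. The table's totals, not full library depths, limit every level here.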
